A study of Mus musculus with 21 samples.

Results

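The G1 cyclins and the inhibitors that hold their kinases back were described as 10 mouse genes across 7 groups of arrays. The genes were the D-type cyclins Ccnd1, Ccnd2 and Ccnd3, the E-type cyclins Ccne1 and Ccne2, the Cip/Kip inhibitor Cdkn1b (p27), and the Ink4-type inhibitors Cdkn2a (p16Ink4a, and p19Arf from another start), Cdkn2b (p15), Cdkn2c (p18) and Cdkn2d (p19). Every probe set whose annotation gave a single gene symbol, that of a member, was taken, which gave 22 of the 34945 probe sets with 1 symbol and 10 of the 18193 genes they cover. Each gene was followed through its brightest probe set, and the others were given beside it. Ccnd1 had 3 probe sets, Ccnd2 had 7, Ccnd3 had 3, Ccne1 and Cdkn1b had 2 each, and the other 5 members had 1 each.

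There were 7 groups of 3 arrays. AH129-5, AH129-N1 and AH129-NC1 were lines of androgenetic haploid embryonic stem cells (ahES cells). CS1-1 and R1 were diploid embryonic stem (ES) lines, and the other groups were MEF, that is embryonic fibroblasts of the mouse, and round sperm. Androgenetic haploid cells carry a single set of chromosomes that comes from a sperm. The ES lines and the round sperm were of 129 Sv background and the MEF of CD1 background. All ES lines grew in N2B27 medium with 2i and LIF, MEF grew in DMEM with serum, and round sperm were taken fresh from testis. The ahES lines and the round sperm had been sorted for haploid cells in G0/G1, whereas the labels give no sort of diploid ES cells or MEF. Cell kind can therefore not be told apart from medium in any comparison with MEF or round sperm, or from strain in any with MEF. Nor can it be told apart from the sort where ahES cells or round sperm are compared with diploid ES cells or MEF. The labels call the arrays biological replicates, without saying that these came from separate cultures or animals, so p-values measure the spread between arrays, which may be technical.

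In a cycling cell, D-type cyclins bind Cdk4 and Cdk6 and E-type cyclins bind Cdk2, and these kinases phosphorylate the retinoblastoma protein and release E2F factors for entry into S phase. Ink4 proteins bind Cdk4 and Cdk6 and keep D cyclins off them, while p27 binds cyclin-Cdk complexes and inhibits those with Cdk2. Mouse ES cells are known for a short G1 phase, and fibroblasts in culture for depending on growth factors to make D cyclins. Round spermatids have finished meiosis and no longer divide.

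Values are log2(MAS5 signal + 9.7), where 9.7 signal units is the offset that damps noise at low signal, and they rank groups within a probe set, not one gene against another. The lower 40% of probe sets on an array lay below 5.34 to 5.63, and a group mean at or below that level is called near background. A call means a Benjamini-Hochberg adjusted p under 0.05 over all genes tested, with a difference of at least 2-fold (limma, two-sided). In these bulk samples, fewer cells of a type and less RNA per cell cannot be told apart. All 8 pluripotency markers were above background in each ES line, and 6 of the 8 were near background in MEF. All 10 spermatid markers were above background in round sperm, and so were all 8 markers of meiotic and earlier germ cells and 4 of 6 Sertoli cell markers. MEF also had 4 of 6 Sertoli cell markers above background, with a summed signal of 1128 to 1162 against 542 to 659 in round sperm. The ES lines had 5 or 6 of the 8 meiotic and earlier markers above background. Round sperm also had 9 of 11 fibroblast, 5 of 8 pluripotency, 2 of 4 Leydig cell and 2 of 4 leukocyte markers above background. The RNA controls were mixed. The 3′ minus 5′ difference of the Gapdh control probe sets averaged 0.55 ± 0.17 in round sperm (SD, n = 3), against -0.24 ± 0.08 in ahES cells (n = 9), -0.24 ± 0.04 in diploid ES cells (n = 6) and -0.21 ± 0.04 in MEF (n = 3). That of Actb averaged 0.74 ± 0.25 in round sperm, whose arrays overlapped ES cells, against 0.55 ± 0.07 in ahES cells, 0.57 ± 0.05 in diploid ES cells and 0.34 ± 0.06 in MEF. The part of RNA quality in the results was not tested.

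The promoters of the Ink4 genes are shown because these genes moved in opposite ways across the cell kinds. Cdkn2a (chromosome 4, 89274473 to 89294619) and Cdkn2b (chromosome 4, 89306289 to 89311032) lie next to each other, Cdkn2c lies elsewhere on chromosome 4 (109660876 to 109666756), and Cdkn2d is on chromosome 9 (21288459 to 21291421). Each window runs from 250 bases before to 50 after an annotated start, on the minus strand, from RefSeq for GRCm38.p6. The windows are chr4:89294570-89294869 (the upstream, Arf start of Cdkn2a), chr4:89282143-89282442 (its downstream, Ink4a start), chr4:89310983-89311282 (Cdkn2b), chr4:109666707-109667006 (the upstream of 2 Cdkn2c starts) and chr9:21291160-21291459 (Cdkn2d). Capitals mark matches to an E2F motif (TTTCCCGC, TTTCGCGC, TTTGCCGC or TTTGGCGC), a CRE (TGACGTCA) or a GC box (GGGCGG, or CCGCCC where it lies on the other strand).
Cdkn2a, Arf start: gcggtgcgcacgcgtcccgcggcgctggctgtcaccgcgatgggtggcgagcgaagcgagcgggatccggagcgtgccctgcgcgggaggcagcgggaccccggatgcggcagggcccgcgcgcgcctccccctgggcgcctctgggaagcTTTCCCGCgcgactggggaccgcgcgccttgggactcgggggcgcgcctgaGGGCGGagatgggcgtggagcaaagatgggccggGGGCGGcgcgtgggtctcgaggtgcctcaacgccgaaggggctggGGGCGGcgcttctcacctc
Cdkn2a, Ink4a start: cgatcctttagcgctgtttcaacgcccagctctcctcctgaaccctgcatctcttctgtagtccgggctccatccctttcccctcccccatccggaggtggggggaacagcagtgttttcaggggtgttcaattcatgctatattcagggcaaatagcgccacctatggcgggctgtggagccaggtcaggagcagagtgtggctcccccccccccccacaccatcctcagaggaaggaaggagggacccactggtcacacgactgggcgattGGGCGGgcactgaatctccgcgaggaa
Cdkn2b: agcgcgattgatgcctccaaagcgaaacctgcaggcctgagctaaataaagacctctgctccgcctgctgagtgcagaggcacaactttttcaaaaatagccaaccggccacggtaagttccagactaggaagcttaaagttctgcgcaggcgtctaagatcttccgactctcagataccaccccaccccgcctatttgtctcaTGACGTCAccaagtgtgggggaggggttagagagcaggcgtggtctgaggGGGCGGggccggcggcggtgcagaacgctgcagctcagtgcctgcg
Cdkn2c, upstream start: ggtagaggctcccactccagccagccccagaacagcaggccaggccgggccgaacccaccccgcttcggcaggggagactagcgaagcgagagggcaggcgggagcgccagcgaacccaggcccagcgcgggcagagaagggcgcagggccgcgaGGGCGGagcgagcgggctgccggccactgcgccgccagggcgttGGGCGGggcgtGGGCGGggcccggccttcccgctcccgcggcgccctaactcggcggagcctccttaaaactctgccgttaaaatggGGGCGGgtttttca
Cdkn2d: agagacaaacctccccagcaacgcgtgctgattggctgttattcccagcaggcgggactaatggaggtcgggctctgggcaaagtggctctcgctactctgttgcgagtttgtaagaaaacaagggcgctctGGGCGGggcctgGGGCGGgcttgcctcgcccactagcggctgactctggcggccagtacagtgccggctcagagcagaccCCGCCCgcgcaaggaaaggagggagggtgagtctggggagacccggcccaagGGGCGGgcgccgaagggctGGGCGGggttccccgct
Promoters were on hand for 7 of the 10 members, as 10 windows. The E2F motif was found in 1 of the 10, at -99 to -92 from the Arf start, and in 2.26% of 32851 mouse promoter windows of the same length. The CRE was found in 1 of the 10, at -46 to -39 in Cdkn2b, and in 1.79% of all. The GC box was found in 9 of the 10 and in 35.7% of all. CCAAT was found in 5 of the 10 and in 37.4% of all, and its match at the Ink4a start overlaps the GC box there. TATAAA was found in 0 of the 10 and in 13.6% of all. Both strands were searched, the motifs were chosen after the windows had been scanned, and a match is a description of the letters. One probe set (1450140_a_at) stands for Cdkn2a, so the Ink4a and Arf transcripts were not separated.

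Between ahES and diploid ES cells no member was called, while each of the other kinds differed from ES cells in several members. Of the 10 members, 0 were called in ahES against diploid ES cells, beside 4.37% of 12892 genes called, and 1 member had an unadjusted p under 0.05. The share of all genes with such an unadjusted p was not counted. Against MEF, ahES cells had 1 member higher and 3 lower (42.3% of 13230 genes called, 21.2% higher and 21.1% lower), and diploid ES cells also had 1 higher and 3 lower (44.8% of 13026 genes called, 22.6% higher and 22.2% lower). Against round sperm, ahES cells had 6 members higher and 2 lower (73.1% of 14797 genes called, 40.8% higher and 32.3% lower), and diploid ES cells had 6 higher and 2 lower (73.5% of 14627 genes called, 40.8% higher and 32.7% lower). MEF against round sperm had 7 higher and 2 lower (76.1% of 14435 genes called, 41.7% higher and 34.5% lower). The shares of members called stood at 4 of 10 against MEF and 8 or 9 of 10 against round sperm, near these backgrounds. The comparisons share arrays, so their counts are not independent.

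The members' median log2 difference was 0.22 in ahES minus diploid ES cells, where the median of all genes was -0.03. It was -0.35 in ahES minus MEF, against 0.08 over all genes, and 3.08 in ahES minus round sperm, against 0.32 over all genes. The scaling of the arrays moved the median of all genes in the round sperm comparisons, since 0.32, 0.33 and 0.31 (ahES, diploid ES and MEF minus round sperm) became 0.09, 0.08 and -0.01 with quantile normalization. Differences of about that size from round sperm have no settled direction.

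**Figure D1:**
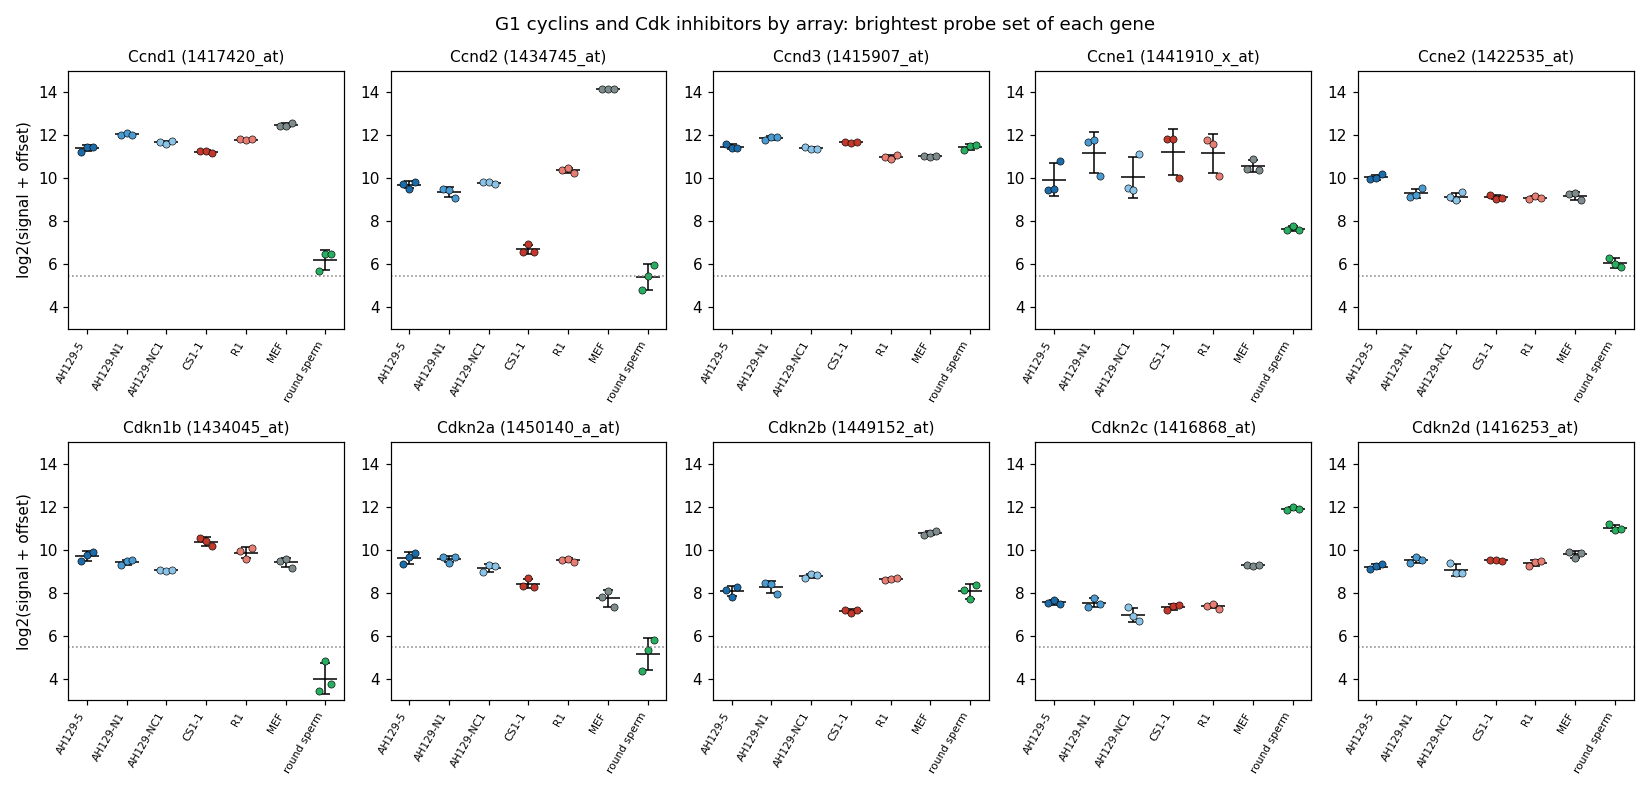
Each panel plots the brightest probe set of 1 gene on the log2(signal + offset) scale, with 3 arrays a group as points, the group mean as a bar and 1 SD as whiskers; the dotted line is the mean of the groups' 40th percentiles. Ccnd2 is brightest in MEF, Cdkn2c and Cdkn2d are brightest in round sperm, and the Ccnd3 means stay between 11.01 and 11.87.

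**Figure D2:**
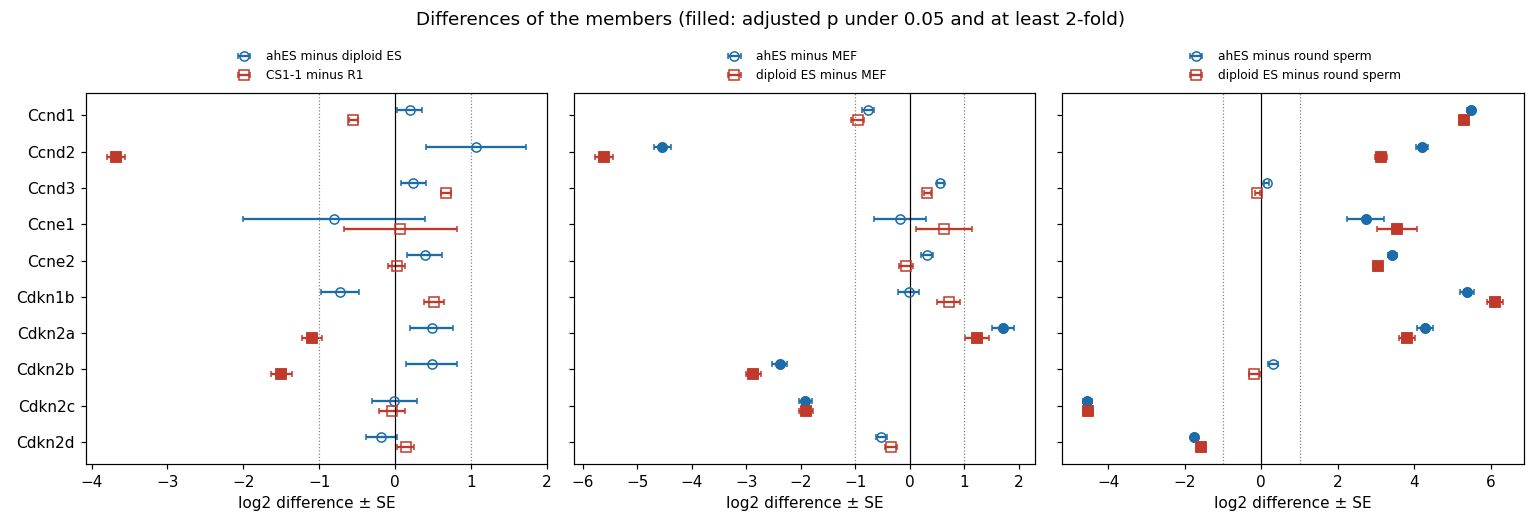
Points are log2 differences with their standard errors, named in each legend with the first kind or line minus the second; filled points passed the adjusted p and 2-fold thresholds and dotted lines mark 2-fold. No member is filled in ahES minus diploid ES, and Ccnd2, Cdkn2a and Cdkn2b are filled in CS1-1 minus R1.

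Among the D cyclins, Ccnd2 had the widest range of signal between the groups. Its brightest probe set (1434745_at) read 9.72, 9.52 and 9.85 in AH129-5, 9.49, 9.48 and 9.1 in AH129-N1, and 9.83, 9.83 and 9.76 in AH129-NC1. The diploid lines stood apart from each other, with 6.58, 6.94 and 6.6 in CS1-1 and 10.39, 10.5 and 10.27 in R1. MEF read 14.15, 14.15 and 14.17, and round sperm 4.8, 5.47 and 5.97. MEF arrays thus lay above every ES array, CS1-1 below every other ES array, and round sperm near background at this probe set. Ccnd2 was 23.2-fold lower in ahES cells than in MEF (log2 difference -4.54 ± 0.16 SE, adjusted p = 2.81e-16) and 48.8-fold lower in diploid ES cells than in MEF (-5.61 ± 0.17, adjusted p = 2.38e-17). The diploid value averages CS1-1, at 6.71 ± 0.2, and R1, at 10.39 ± 0.12 (SD, n = 3 each). Its SE leaves out the difference between these lines, and 48.8-fold is the size in neither of them. All 7 Ccnd2 probe sets were called lower in ahES cells than in MEF. Among them, 1416124_at was near background in ahES cells and passed the filter on low signal through MEF alone. Its difference is therefore a bound, of at least 9.47-fold. The others gave -4.54 to -5.65 on the log2 scale. In the fit over probe sets, 39.9% of 24300 were called in that comparison. At 1434745_at, where round sperm was near background, Ccnd2 was at least 15.4-fold higher in ahES cells (adjusted p = 1.01e-16) and at least 7.34-fold higher in diploid ES cells (adjusted p = 6.85e-14) than in round sperm. The diploid bound also averages the unlike lines. It overstates that of CS1-1, which averaged 6.71 ± 0.2 against 5.41 ± 0.59 in round sperm. The probe sets gave different sizes of the difference from round sperm. At 1416122_at, where round sperm averaged 6.7 ± 0.54 (SD, n = 3) with all 3 arrays above the 40th percentile, Ccnd2 was 4.73-fold higher in ahES cells (adjusted p = 4.18e-12) and 2.97-fold higher in diploid ES cells (adjusted p = 5.55e-09) in the fit over probe sets. There the diploid ES arrays overlapped those of round sperm, with CS1-1 averaging 6.78. The other 4 tested probe sets gave bounds of at least 1.59-fold to at least 6.47-fold in ahES cells, and in diploid ES cells 1416123_at was not called (0.43 ± 0.33, adjusted p = 0.218). Called in the fit over probe sets were 71.7% of 26255 (ahES minus round sperm) and 72.3% of 26053 (diploid ES minus round sperm).

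Ccnd1 was bright in ES cells and MEF and low in round sperm. The probe set 1417420_at read 11.23, 11.47 and 11.47 in AH129-5, 12.02, 12.09 and 12.03 in AH129-N1, and 11.7, 11.61 and 11.74 in AH129-NC1. CS1-1 read 11.26, 11.29 and 11.19, R1 11.82, 11.76 and 11.81, MEF 12.45, 12.43 and 12.56, and round sperm 5.69, 6.48 and 6.48. Round sperm lay far below all other arrays, MEF lay above all ES arrays, and AH129-5 and CS1-1 overlapped. Ccnd1 was 44.9-fold higher in ahES cells than in round sperm at this probe set (log2 difference 5.49 ± 0.11, adjusted p = 2.42e-21). It was 8.73-fold higher at 1448698_at (3.13 ± 0.23, adjusted p = 1.57e-10), where round sperm averaged 7.67 ± 0.96, and at least 29.8-fold higher at 1417419_at. It was 1.71-fold lower in ahES cells than in MEF (-0.77 ± 0.11, adjusted p = 2.62e-06), short of the 2-fold threshold. The other Ccnd1 probe sets gave -0.63 ± 0.25 (1417419_at) and -1.39 ± 0.23 (1448698_at) for ahES minus MEF, and the second of these was called lower.

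Ccnd3 differed least between the groups. Its probe set 1415907_at averaged 11.47 ± 0.11 in AH129-5, 11.87 ± 0.09 in AH129-N1, 11.41 ± 0.04 in AH129-NC1, 11.68 ± 0.03 in CS1-1, 11.01 ± 0.1 in R1, 11.02 ± 0.04 in MEF and 11.44 ± 0.13 in round sperm (SD, n = 3 each). Round sperm overlapped the ahES arrays, and R1 overlapped MEF. The Ccnd3 signal of round sperm thus lay close to that of ES cells: ahES minus round sperm was 0.14 ± 0.06 (adjusted p = 0.0345) and diploid ES minus round sperm -0.1 ± 0.06 (adjusted p = 0.137), both under 2-fold and within the shift that scaling makes. Its other probe sets were dim: 1438805_at averaged 4.51 to 5.79 over the 7 groups and 1444323_at 4.72 to 6.55. The probe set 1444323_at was called higher in ahES cells than in round sperm (1.37 ± 0.36, at least 1.5-fold, adjusted p = 0.00141), so the Ccnd3 probe sets disagree there.

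The E cyclins were present in ES cells and MEF and low in round sperm. Ccne1 has 2 probe sets that behaved differently. The probe set 1416492_at averaged 10.37 ± 0.13 in AH129-5, 10.89 ± 0.15 in AH129-N1, 10.68 ± 0.07 in AH129-NC1, 10.8 ± 0.06 in CS1-1, 10.73 ± 0.11 in R1, 9.86 ± 0.03 in MEF and 7.62 ± 0.11 in round sperm (SD, n = 3 each). All ES arrays lay above all MEF arrays, and these above round sperm. In the fit over probe sets, ahES minus MEF was 0.79 ± 0.07 (adjusted p = 5.70e-09), short of 2-fold, and ahES minus round sperm was 3.02 ± 0.08 (adjusted p = 1.04e-19).

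The brighter Ccne1 probe set, 1441910_x_at, split the 3 arrays of every ES line. It read 9.48, 9.49 and 10.82 in AH129-5, 11.69, 11.78 and 10.1 in AH129-N1, and 9.54, 9.46 and 11.13 in AH129-NC1, for replicates 1 to 3. CS1-1 read 11.84, 11.85 and 10.0, and R1 11.77, 11.61 and 10.11. In each line replicates 1 and 2 stood together and replicate 3 stood apart, above them in AH129-5 and AH129-NC1 and below them in AH129-N1, CS1-1 and R1. MEF read 10.43, 10.9 and 10.38, and round sperm 7.62, 7.78 and 7.58, without such a gap. The SD within ES lines was 0.935, and none of 9264 bright probe sets (mean signal of at least 500 in ES arrays) had a larger one; it was 0.11 for the other Ccne1 probe set. An _x_at name marks a probe set that holds probes shared with other sequences. ahES minus MEF by this probe set was -0.18 ± 0.48 (adjusted p = 0.74), and ahES minus round sperm 2.73 ± 0.49 (adjusted p = 4.49e-05).

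**Figure D3:**
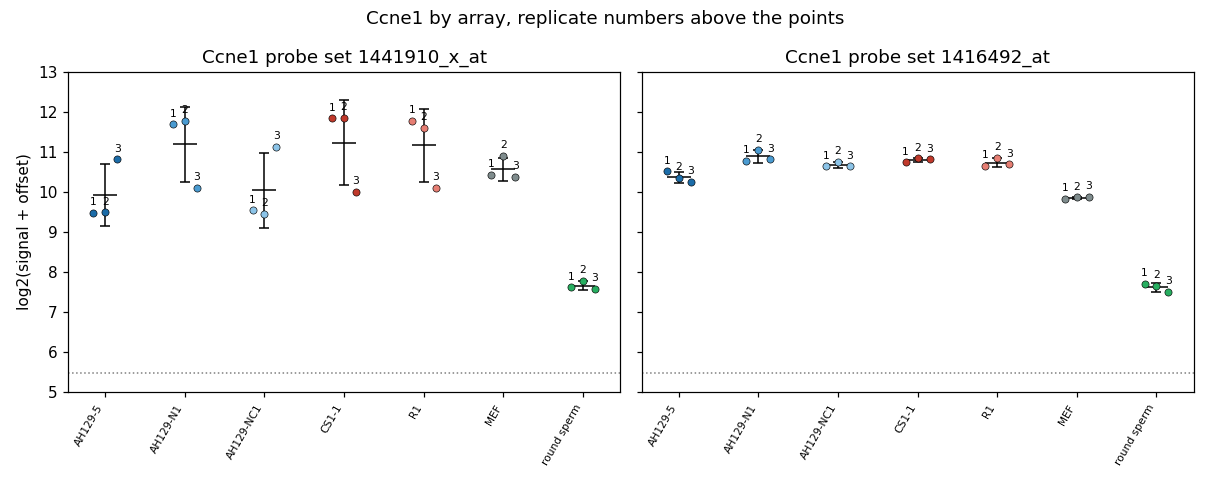
The 2 Ccne1 probe sets are plotted by array on the log2(signal + offset) scale, with replicate numbers above the points, group means as bars and 1 SD as whiskers; the dotted line is the mean of the groups' 40th percentiles. At 1441910_x_at replicate 3 lies apart from replicates 1 and 2 in each of the 5 ES lines, and at 1416492_at the 3 arrays of a line lie close together.

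Ccne2 read 9.95, 10.0 and 10.18 in AH129-5, which lay above all other arrays. AH129-N1 read 9.12, 9.24 and 9.53, AH129-NC1 9.13, 8.98 and 9.35, CS1-1 9.23, 9.06 and 9.07, R1 9.03, 9.16 and 9.11, and MEF 9.26, 9.3 and 8.98. These 5 groups overlapped each other. Round sperm read 6.32, 6.02 and 5.87, below all others. Ccne2 was 10.8-fold higher in ahES cells than in round sperm (log2 difference 3.43 ± 0.11, adjusted p = 1.21e-17) and 8.23-fold higher in diploid ES cells than in round sperm (3.04 ± 0.12, adjusted p = 3.60e-16). ahES minus MEF was 0.32 ± 0.11 (adjusted p = 0.0139), under 2-fold.

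Cdkn1b, which encodes p27, had the smallest p of the members between ahES and diploid ES cells. The probe set 1434045_at read 9.45, 9.76 and 9.9 in AH129-5, 9.27, 9.46 and 9.51 in AH129-N1, and 9.03, 9.02 and 9.06 in AH129-NC1, against 10.55, 10.4 and 10.15 in CS1-1 and 9.95, 9.56 and 10.06 in R1. Every CS1-1 array lay above every ahES array, and R1 overlapped AH129-5. ahES minus diploid ES was -0.73 ± 0.25, or 1.66-fold lower, with an adjusted p of 0.0621 (limma). The same probe set had an adjusted p of 0.0441 in the fit over probe sets (3.86% of 23485 called), again under 2-fold and so not called. The dimmer probe set 1419497_at gave -0.45 ± 0.48 (adjusted p = 0.663). Cdkn1b read 9.48, 9.57 and 9.16 in MEF and 3.42, 4.81 and 3.77 in round sperm, which lay at background. It was at least 14.7-fold higher in ahES cells (adjusted p = 8.43e-17) and at least 24.4-fold higher in diploid ES cells (adjusted p = 3.09e-17) than in round sperm. At the dim 1419497_at, ahES minus round sperm was 0.57 ± 0.25, not called, and diploid ES cells were at least 1.77-fold higher than round sperm (1.01 ± 0.27, adjusted p = 0.00148).

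The Ink4 genes divided between MEF, ES cells and round sperm. Cdkn2c read 7.51, 7.68 and 7.47 in AH129-5, 7.35, 7.75 and 7.48 in AH129-N1, and 7.31, 6.92 and 6.66 in AH129-NC1. CS1-1 read 7.19, 7.38 and 7.44, R1 7.4, 7.48 and 7.26, MEF 9.3, 9.23 and 9.28, and round sperm 11.84, 11.96 and 11.89. The ES lines formed a low band, MEF lay above them, and round sperm above MEF. Cdkn2c was 23.4-fold lower in ahES cells than in round sperm (log2 difference -4.55 ± 0.12, adjusted p = 2.49e-19) and 3.79-fold lower in ahES cells than in MEF (-1.92 ± 0.12, adjusted p = 4.95e-12). The diploid lines differed from round sperm by -4.54 ± 0.13 and from MEF by -1.91 ± 0.13.

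Cdkn2d, the other Ink4 gene that was highest in round sperm, averaged 9.21 ± 0.12 in AH129-5, 9.52 ± 0.13 in AH129-N1, 9.05 ± 0.27 in AH129-NC1, 9.51 ± 0.03 in CS1-1, 9.37 ± 0.12 in R1, 9.78 ± 0.15 in MEF and 11.01 ± 0.14 in round sperm (SD, n = 3 each). Round sperm did not overlap any other group, while MEF overlapped AH129-N1. Cdkn2d was 3.35-fold lower in ahES cells (-1.75 ± 0.1, adjusted p = 2.89e-13) and 2.97-fold lower in diploid ES cells (-1.57 ± 0.11, adjusted p = 6.19e-12) than in round sperm. The difference of ahES cells from MEF was -0.52 ± 0.1 (adjusted p = 8.67e-05), under 2-fold. Over the 21 arrays Cdkn2c and Cdkn2d had a Pearson r of 0.95, and over the 15 ES arrays 0.63, as a description of arrays that share their groups.

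Cdkn2a, whose products act on Cdk4 and Cdk6 (p16Ink4a) and on the p53 regulator Mdm2 (p19Arf), was the Ink4 gene with the higher signal in ES cells. It read 9.32, 9.67 and 9.84 in AH129-5, 9.64, 9.39 and 9.65 in AH129-N1, and 8.94, 9.29 and 9.23 in AH129-NC1. CS1-1 read 8.31, 8.66 and 8.27, R1 9.54, 9.58 and 9.43, MEF 7.79, 8.08 and 7.32, and round sperm 4.34, 5.33 and 5.79. All ES arrays lay above the MEF arrays, and round sperm lay near background. Cdkn2a was 3.28-fold higher in ahES cells than in MEF (1.71 ± 0.21, adjusted p = 2.82e-07) and 2.36-fold higher in diploid ES cells than in MEF (1.24 ± 0.22, adjusted p = 4.22e-05). The diploid lines were unequal there, since CS1-1 stood at 161% of the MEF signal, under 2-fold, and R1 at 349%. Cdkn2a was at least 14.4-fold higher in ahES cells (adjusted p = 1.70e-14) and at least 10.3-fold higher in diploid ES cells (adjusted p = 4.65e-13) than in round sperm. The diploid bound averages CS1-1, at 8.42 ± 0.21, and R1, at 9.52 ± 0.08 (SD, n = 3 each), and overstates that of CS1-1.

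Cdkn2b, the neighbour of Cdkn2a, ran the other way against MEF. It read 8.14, 7.8 and 8.25 in AH129-5, 8.45, 8.39 and 7.92 in AH129-N1, and 8.67, 8.86 and 8.8 in AH129-NC1. CS1-1 read 7.18, 7.04 and 7.19, R1 8.58, 8.63 and 8.7, MEF 10.66, 10.76 and 10.85, and round sperm 8.12, 7.7 and 8.37. MEF lay above all other arrays, CS1-1 below all others, and round sperm overlapped the ahES arrays. Cdkn2b was 5.26-fold lower in ahES cells (-2.39 ± 0.13, adjusted p = 7.45e-13) and 7.33-fold lower in diploid ES cells (-2.87 ± 0.14, adjusted p = 1.03e-13) than in MEF. The diploid value averages CS1-1, at 7.14 ± 0.09, and R1, at 8.63 ± 0.06 (SD, n = 3 each). Its SE leaves out the difference between these lines, and 7.33-fold is the size in neither of them. ahES minus round sperm was 0.3 ± 0.13 (adjusted p = 0.0412), under 2-fold, and became -0.3 with quantile normalization.

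Between the diploid lines 3 members were called, and the value of ahES against diploid ES cells depended on the line. CS1-1 had lower Ccnd2 (-3.68 ± 0.12, 12.8-fold, adjusted p = 4.14e-15), Cdkn2a (-1.1 ± 0.13, 2.14-fold, adjusted p = 9.28e-07) and Cdkn2b (-1.5 ± 0.14, 2.82-fold, adjusted p = 4.47e-08) than R1. Called were 0 members higher and 3 lower in CS1-1, beside 9.89% of 12098 genes called, 4.18% higher and 5.7% lower. Under 2-fold, Ccnd1 was also lower in CS1-1 (-0.55 ± 0.06, adjusted p = 3.77e-07). Ccnd3 (0.67 ± 0.06, adjusted p = 3.40e-08) and Cdkn1b (0.51 ± 0.13, adjusted p = 0.00282) were higher there, also under 2-fold. Of the 6 Ccnd2 probe sets that passed the filter on low signal, all 6 were called lower in CS1-1 (8.97% of 22032 probe sets called). With R1 left out, ahES cells had the same 3 members higher than CS1-1, by 2.91 ± 0.26 (Ccnd2, adjusted p = 1.82e-07), 1.03 ± 0.28 (Cdkn2a, adjusted p = 0.0146) and 1.23 ± 0.32 (Cdkn2b, adjusted p = 0.0117). With CS1-1 left out, ahES minus R1 was -0.77 ± 0.22 for Ccnd2 (adjusted p = 0.0339), -0.07 ± 0.25 for Cdkn2a (adjusted p = 0.926) and -0.27 ± 0.31 for Cdkn2b (adjusted p = 0.714), none of them called.

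Most fibroblast markers, like Ccnd2, Cdkn2a and Cdkn2b, were lowest in CS1-1 among the ES lines. The labels state neither feeder cells nor their absence in the ES cultures. Of 12 fibroblast markers, 11 had a probe set, and all 11 were above background in each ES line. CS1-1 had the lowest value of the 5 ES lines in 10 of the 11, and the highest in 1, Pdgfrb, at 9.22, against 8.88 in AH129-5, 8.47 in AH129-N1, 8.29 in AH129-NC1 and 8.93 in R1. Their summed signal per array was 24043 to 28412 in AH129-5, 21600 to 26293 in AH129-N1, 20208 to 20452 in AH129-NC1, 2890 to 3633 in CS1-1 and 27363 to 28174 in R1, against 150739 to 154724 in MEF and 2254 to 2331 in round sperm. As a percentage of the MEF signal, the median marker stood at 13 in AH129-5, 11 in AH129-N1, 11 in AH129-NC1, 1.71 in CS1-1 and 13.9 in R1. Ccnd2 stood at 4.52%, 3.57% and 4.84% of MEF in the ahES lines, at 0.523% in CS1-1 and at 7.31% in R1. Cdkn2b stood at 15.1%, 17.3% and 24.9% in the ahES lines, at 7.6% in CS1-1 and at 22.5% in R1. Both were thus lowest in the line with the lowest summed fibroblast markers. The order of the other lines was not shared throughout. Among them AH129-NC1 had the lowest summed markers and the highest Cdkn2b, while R1 had the highest median marker and the highest Ccnd2. Cdkn2a stood above MEF in all 5 lines, at 376%, 361% and 272% in the ahES lines, with 161% in CS1-1 and 349% in R1. The part of fibroblast RNA in the differences of Ccnd2, Cdkn2a and Cdkn2b was not tested.

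**Figure D4:**
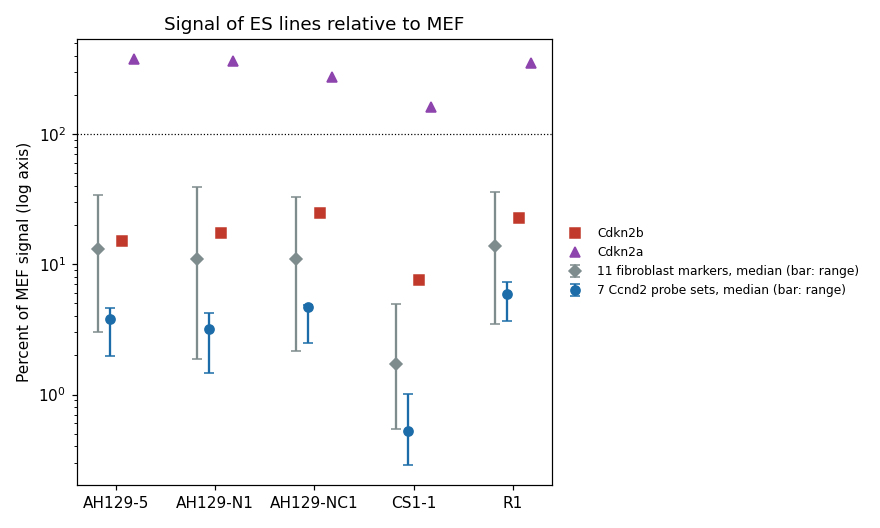
Signal in each ES line is plotted as a percentage of the MEF signal on a log axis; bars on the marker and Ccnd2 points span the lowest and highest of the 11 markers and 7 probe sets, and the dotted line is the MEF level. CS1-1 is lowest for the fibroblast markers (1.71%), for Ccnd2 (0.523%), for Cdkn2b (7.6%) and for Cdkn2a (161%), which is above the MEF level in all 5 lines.

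Between the ahES lines no member was called by its brightest probe set, beside 5.33% (AH129-5 minus AH129-N1), 5.37% (AH129-5 minus AH129-NC1) and 3.15% (AH129-N1 minus AH129-NC1) of all genes. The dim Cdkn1b probe set 1419497_at was called higher in AH129-5 than in AH129-N1 (1.04 ± 0.31, 2.06-fold, adjusted p = 0.0132), beside 4.78% of 21866 probe sets. Without the 2-fold requirement, 5, 6 and 8 members passed the adjusted p threshold in these 3 pairs, and so did 42.8%, 39.3% and 36.2% of all genes tested. The largest of these differences by a brightest probe set was that of Ccne2, higher in AH129-5 than in AH129-NC1 (0.89 ± 0.11, 1.85-fold, adjusted p = 2.64e-06) and than in AH129-N1 (0.74 ± 0.11, 1.67-fold, adjusted p = 1.96e-05). Cdkn2b was 1.64-fold lower in AH129-5 than in AH129-NC1 (-0.71 ± 0.14, adjusted p = 5.77e-04) and Cdkn1b 1.59-fold higher (0.67 ± 0.13, adjusted p = 4.12e-04). Ccnd1 was 1.57-fold lower in AH129-5 than in AH129-N1 (-0.66 ± 0.06, adjusted p = 7.31e-08). Median-centring the arrays moved the share of higher calls over all genes to 54.2% against 72.7% by the main scaling in AH129-5 minus AH129-N1, and to 39.3% against 60% in AH129-5 minus AH129-NC1.

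The wider G1/S machinery was read from 31 further genes, of which 30 had a probe set. Of 29 tested, 0 were called between ahES and diploid ES cells, and the list's median difference was 0.02, against -0.03 over all genes. An unadjusted p under 0.05 was found in 6 with lower and 1 with higher signal in ahES cells. The share of all genes with such a p was not counted. Against MEF, ahES cells had 6 higher and 6 lower of 29 tested (21.2% and 21.1% of all genes), with a median of 0.52, against 0.08 over all genes. The lower ones included Cdk6, a partner of D cyclins, at 9.41 ± 0.12 in ahES cells (SD, n = 9) and 11.53 ± 0.04 in MEF (n = 3), a difference of -2.12 ± 0.07 (adjusted p = 8.84e-17). Myc was lower by -3.37 ± 0.15 (adjusted p = 1.51e-14) and its relative Mycn higher by 4.74 ± 0.2 (adjusted p = 5.92e-14). Cdk2, the partner of E cyclins, was 2.89-fold higher in ahES cells (1.53 ± 0.08, adjusted p = 4.16e-13), and Cdc25a, a phosphatase that activates Cdk2, was 2.59-fold higher (1.37 ± 0.06, adjusted p = 1.00e-14). In diploid ES cells 7 were higher and 5 lower than in MEF (22.6% and 22.2% of all genes), with these same 5 genes leading: Cdk6 -1.63 ± 0.07, Myc -3.64 ± 0.16, Mycn 3.87 ± 0.22, Cdk2 1.64 ± 0.09 and Cdc25a 1.71 ± 0.06.

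Against round sperm, 19 of 30 were higher and 4 lower in ahES cells, where 40.8% and 32.3% of all genes were called, and the list's median was 1.8, against 0.32 over all genes. In diploid ES cells the counts were likewise 19 and 4, where 40.8% and 32.7% of all genes were called, with a median of 2.0, against 0.33 over all genes. Cks1b, a Cdk-binding subunit, was 51.4-fold higher in ahES cells (5.68 ± 0.05, adjusted p = 1.13e-26), Skp2, which marks p27 for degradation, 11.8-fold higher (3.56 ± 0.06, adjusted p = 9.30e-23), and Tfdp1, the E2F partner, 14.6-fold higher (3.87 ± 0.07, adjusted p = 3.10e-22). Cdkn3, a phosphatase that acts on Cdk2, was 25.1-fold lower in ahES cells than in round sperm (-4.65 ± 0.08, adjusted p = 7.59e-23). Cdkn1a, which encodes the p53 target p21, was 43.9-fold higher in ahES cells (5.46 ± 0.12, adjusted p = 1.23e-20). That fold averages unlike lines, from 10.59 ± 0.08 in AH129-5 to 13.15 ± 0.11 in AH129-NC1 (SD, n = 3 each), and its SE leaves their difference out. In MEF 18 of 29 were higher and 7 lower than in round sperm, where 41.7% and 34.5% of all genes were called.

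Between the ahES lines Cdkn1a had the lowest adjusted p of the list. It averaged 10.59 ± 0.08 in AH129-5, against 12.45 ± 0.24 in AH129-N1 and 13.15 ± 0.11 in AH129-NC1 (SD, n = 3 each), a difference of -1.86 ± 0.1 (adjusted p = 1.64e-10) and -2.55 ± 0.1 (adjusted p = 1.67e-12). Rb1 was 2.03-fold lower in AH129-5 than in AH129-N1 (adjusted p = 2.04e-07) and 3.67-fold lower than in AH129-NC1 (adjusted p = 2.64e-11), and its relative Rbl2 was 2.01-fold (adjusted p = 2.62e-06) and 2.02-fold lower (adjusted p = 2.66e-06). Myc was lower in AH129-N1, at 6.7 ± 0.33, than in AH129-5, at 8.39 ± 0.11, and AH129-NC1, at 8.32 ± 0.11 (SD, n = 3 each). Between the diploid lines Cdkn1c, which encodes p57, was 2.8-fold lower in CS1-1 than in R1 (-1.48 ± 0.29, adjusted p = 2.70e-04).

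The sort was read against cell cycle genes. Of 19 S phase genes tested in ahES minus diploid ES cells 0 were called and 18 had a difference below 0. In 9 the signal was lower with an unadjusted p under 0.05, and the median was -0.19, against -0.03 over all genes. Of 20 G2/M genes 0 were called and 16 had a difference below 0. In 7 the signal was lower with an unadjusted p under 0.05, and the median was -0.15. The shares of all genes below 0 or with such a p were not counted, so these counts stand without a background. The small shifts of the S phase and G2/M genes lie beside the values of the G1 cyclins and inhibitors in that comparison. The part of the sort in them was not tested. Against MEF, ahES cells had 13 of 19 S phase and 8 of 20 G2/M genes called higher and 0 lower, where 21.2% of all genes were called higher. The sort also goes with kind in that comparison, and its part was not tested. Against round sperm, they had 15 of 19 S phase genes higher and 0 lower, and 7 of 20 G2/M genes higher and 3 lower, where 40.8% of all genes were called higher and 32.3% lower.

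The genes whose pattern was most like each member were taken as the 2 with the highest Pearson r over the 21 arrays, among 15412 genes. The 21 arrays fall into 7 groups, so these values mostly reflect the order of the groups, and they carry no test. They were Sec23a and Snx4 for Ccnd1 (0.996 and 0.99), Cd44 and Antxr1 for Ccnd2 (both 0.99), and Pcgf5 and Xpnpep1 for Ccnd3 (both 0.87). For the E cyclins they were Rrm2b and Dhcr7 for Ccne1 (0.87 and 0.86) and Gapvd1 and Mrpl23 for Ccne2 (both 0.99). For the inhibitors they were Tmem256 and Zscan26 for Cdkn1b (both 0.99), Gstm2 and Cfp for Cdkn2a (both 0.98), Cyp1b1 and Rhoj for Cdkn2b (both 0.96), Smarcc2 and Gstm5 for Cdkn2c (both 0.99), and Vav2 and Msl1 for Cdkn2d (both 0.97). Within the 15 ES arrays alone, the r of Cd44 with Ccnd2 was 0.98 and that of Cyp1b1 with Cdkn2b 0.88, while Smarcc2 with Cdkn2c gave 0.63. Among the members themselves, Ccnd2 and Cdkn2b had an r of 0.86 over all arrays and 0.91 over the ES arrays, and Cdkn2a and Cdkn2c had -0.93 over all arrays and 0.23 over the ES arrays.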

How the data were processed

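Gene expression was measured on 21 Affymetrix arrays, 3 for each of 7 groups taken from the sample titles. The deposited values were log2 signals of 45101 probe sets, made with MAS5 by the authors per the submitters' processing notes, with no version named. The base of the logarithm was taken from the values: raised from base 2, their 2% trimmed mean was 500 on every array. Detection calls were not used, and 3 arrays per group limit the precision. After leaving out 64 control probe sets, 34945 probe sets had 1 symbol in the platform annotation, 932 had several and 9160 had none. An offset of 9.7 signal units was added on the linear scale before the logarithm, set at the median of the arrays' 20th percentiles. The brightest probe set stood for a gene. Tested genes had to lie above the 40th percentile of the array on each array of at least 1 of the groups compared. All 10 members passed in each comparison.

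limma 3.58.1 (R 4.3.3, statmod 1.5.0; lmFit, and eBayes with trend and robust) was fitted over all genes, and again over all probe sets with 1 symbol. The comparison of ahES with diploid ES cells took the 15 ES arrays, with the line as a random block (consensus correlation 0.687). Other comparisons of kinds took all 21 arrays, and pairs of lines took the 15 ES arrays. The fits over kinds treat the 9 ahES and the 6 diploid ES arrays as arrays of 3 and 2 lines that were given equal weight. In comparisons with MEF or round sperm, standard errors and p-values come from the spread of arrays within groups. They leave out the differences between lines of a kind. A fold against a group near background was bounded by taking, on each of its arrays, the higher of the measured value and the array's 40th percentile before averaging. All 10 members were named, with at most 5 called genes of the G1/S list per comparison by adjusted p. The fits were tested on simulated data. In ahES minus diploid ES, 67% of 100 simulated log2 changes of 1.5 and 97% of 100 changes of 3 were recovered, with 9 false calls among 12892 genes. In ahES minus MEF these were 92% and 100%, with 1 false call among 13230 genes. A real change near 1.5 could thus be missed between ahES and diploid ES cells. The simulated ahES minus MEF data held no differences between lines, so they cannot show how such differences bear on its calls. In the simulated ahES minus diploid ES data all genes had the same correlation within lines, unlike the real genes. Arrays with the same replicate number did not deviate together (r -0.05 to 0.04 over 30 pairs), so the numbers were not used as pairs. Alternatives were the offset, the filter, array scaling, the choice of probe set and leaving out arrays. The line block was varied and lines were left out only in ahES minus diploid ES. The members and gene lists were chosen with earlier results of these data known.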

Additional observations from a re-analysis of the deposited data

Results flagged for a closer look

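In the 9 ahES arrays 3 values lay far from the others by Dixon's criterion. Over the 22 probe sets 44 groups of arrays were tested, and chance flags about 1 in 20 groups. Ccnd2 stood at 3.85 in AH129-N1 replicate 1 at the dim probe set 1416124_at, which was near background in every ES line. Ccnd2 stood at 9.1 in AH129-N1 replicate 3 at 1434745_at, its brightest probe set. Ccnd3 stood at 4.54 in AH129-NC1 replicate 3 at the dim probe set 1444323_at.

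For 3 members the difference of ahES cells from CS1-1 was not that from R1, by a call in CS1-1 minus R1 (limma). The difference was -3.68 for Ccnd2 (adjusted p = 4.14e-15), -1.1 for Cdkn2a (adjusted p = 9.28e-07) and -1.5 for Cdkn2b (adjusted p = 4.47e-08), and in each the 3 CS1-1 arrays lay below the 3 R1 arrays.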

How the results depend on the processing

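The 36 member differences that were called kept their direction and their call in all 717 alternatives run on them. None of these alternatives left out a line. Lines were left out only in ahES minus diploid ES, where no member was called. Leaving out 1 array at a time gave 0 called members in ahES minus diploid ES and in each pair of ahES lines, 3 in CS1-1 minus R1, 4 in ahES and in diploid ES minus MEF, 8 in ahES and in diploid ES minus round sperm, and 9 in MEF minus round sperm.

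The members called in ahES minus diploid ES depended on the diploid line: 3 without line R1 (Ccnd2 2.91, Cdkn2a 1.03, Cdkn2b 1.23), against 0 with both. Without line R1 Ccnd3 was -0.09 and Cdkn2c 0.01; without line CS1-1 Ccnd1 was -0.09, Ccnd2 -0.77, Cdkn2a -0.07 and Cdkn2b -0.27; without line AH129-NC1 Cdkn2c was 0.18. All genes called there were 564 in the main fit, 1106 without line R1, 967 with no block for the line and 282 with 1 mean per line, so the shared block correlation bears on that count, while the members' count was 0 in both of these. With a 4 times larger offset the genes called were 376 in AH129-5 minus AH129-N1 (main 648), 371 in AH129-5 minus AH129-NC1 (main 655) and 172 in AH129-N1 minus AH129-NC1 (main 381). With the filter at the 60th percentile, which tests fewer genes, they were 794 in CS1-1 minus R1 (main 1196), 421 in AH129-5 minus AH129-N1 and 221 in AH129-N1 minus AH129-NC1.

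Changes of sign were confined to members that were not called. With quantile normalization Cdkn2c was 0.03 (ahES minus diploid ES), Cdkn1b 0.08 (ahES minus MEF), Ccne2 0.01 (diploid ES minus MEF) and -0.01 (CS1-1 minus R1), Cdkn2b -0.3 (ahES minus round sperm) and Ccnd3 0.01 (diploid ES minus round sperm). With median-centred arrays Cdkn2c was 0.02 (CS1-1 minus R1). With the mean over probe sets Ccne1 was 0.3 (ahES minus MEF), and without _x_at and _s_at probe sets 0.79; Ccnd3 was 0.73 (diploid ES minus round sperm), 0.26 (MEF minus round sperm) and 0.28 (AH129-5 minus AH129-N1). Leaving out 1 array gave -0.46 to 0.68 for Ccne1, -0.04 to 0.05 for Ccne2 and -0.1 to 0.03 for Cdkn2c in CS1-1 minus R1, -0.14 to 0.06 for Cdkn1b in ahES minus MEF and -0.06 to 0.05 for Cdkn2c in ahES minus diploid ES. Ccnd1 passed 2-fold in diploid ES minus MEF with quantile normalization (-1.01) and with the mean over probe sets (-1.09). The causes were not tested. With the replicate block, which the data do not bear out as a pairing, the members called in ahES minus diploid ES stayed at 0 and the genes called were 524.

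Signal near background limits the brightest probe sets of Ccnd2, Cdkn1b and Cdkn2a in round sperm to bounds. Each cell kind other than ES cells is 1 group of 3 arrays, and the diploid ES arm rests on 2 lines that differ. MEF and round sperm differ from ES cells in medium, strain or sort as well as kind.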
